A study of Mus musculus with 4 samples.

Results

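The genes described here are 10 genes of the Hippo pathway in mouse embryonic stem (ES) cells: the coactivators Yap1 and Wwtr1 (also called TAZ), their DNA-binding partners Tead1, Tead2 and Tead4, the kinase gene Lats2, and the target genes Ccn2, Ccn1, Amotl2 and Ankrd1. They are 10 of the 18194 genes that the platform annotation names with 1 symbol, and they are read by 24 probe sets, all matched by symbol. The genes were chosen by pathway membership with the homozygous and wild type signals of these same arrays already known, so their homozygous minus wild type values are given as a description, with no test.

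Hippo signalling is a kinase cascade: the MST kinases switch on the LATS kinases, which phosphorylate YAP and TAZ and keep them out of the nucleus. YAP and TAZ that reach the nucleus bind TEAD proteins and switch on genes such as Ccn1 and Ccn2, and they respond to cell contact, to matrix stiffness and to tension in the actin cytoskeleton. In the mouse blastocyst, YAP with TEAD4 turns on trophoblast genes in the outer cells, while LATS kinases keep it inactive in the inner cells from which ES cells derive. The activity of YAP and TAZ is set largely by phosphorylation and location, which RNA levels do not show.

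RNA of 4 ES cell samples was measured on 1 Affymetrix array each: 2 homozygous BAF250 knock-out samples (ko1 and ko2), 1 heterozygous sample and 1 wild type sample, all kept on gelatin in medium with serum and, in the words of the labels, leukocyte inhibitory factor. BAF250 is the ARID-domain subunit of the BAF chromatin remodelling complex; the labels do not say whether Arid1a or Arid1b was disrupted, nor how, nor whether ko1 and ko2 are independent clones. Wild type and heterozygous were each measured once. The labels do not say that ko1 and ko2 are separate cultures, so every p-value reflects only how far these arrays scatter, which may be technical.

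The Arid1a probe set used read 7.03 in ko1 and 3.57 in ko2, against 50.4 in heterozygous and 109 in wild type. A second Arid1a probe set gave 17.3 in ko1 and 1.06 in ko2, against 24.1 in heterozygous and 42.9 in wild type, so ko1 was above background on both. All 10 ES cell markers examined, Pou5f1 and Nanog among them, were above background on all 4 arrays. The background of an array, taken as its brightest unspiked bacterial control, lay between 3.82 and 7.57. The median gene was 1.68-fold dimmer in homozygous than in wild type arrays and 1.60-fold dimmer in heterozygous than in wild type, but only 1.02-fold dimmer in homozygous than in heterozygous. Each difference or fold below is for that reason taken relative to the median gene. It is on the scale log2(signal + 0.675), which understates changes of dim genes. The p-values below test the difference before the median gene is subtracted, so against wild type they do not match the difference printed beside them. An actin control ratio (3' over 5' signal), a sign of RNA quality, was 5.01 in ko1 and 2.61 in ko2, against 2.86 in heterozygous and 1.30 in wild type.

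The promoters of the target genes are shown because TEAD proteins bind a short fixed word, GGAATG, which reads CATTCC on the other strand. RefSeq promoters of assembly GRCm38.p6 were matched for 7 of the 10 genes, all but Ccn2, Tead1 and Tead4. Capitals mark that word in the 250 bases before the start site, written 5′ to 3′ on the strand of the gene: Ccn1 (chr3:145649986-145650235, minus strand), Amotl2 (chr9:102717554-102717803, plus strand) and Ankrd1 (chr19:36119845-36120094, minus strand).
Ccn1: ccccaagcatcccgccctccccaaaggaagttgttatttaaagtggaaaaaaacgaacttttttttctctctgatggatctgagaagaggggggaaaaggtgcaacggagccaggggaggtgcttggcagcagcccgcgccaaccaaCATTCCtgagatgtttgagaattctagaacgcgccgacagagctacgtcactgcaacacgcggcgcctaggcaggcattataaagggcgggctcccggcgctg
Amotl2: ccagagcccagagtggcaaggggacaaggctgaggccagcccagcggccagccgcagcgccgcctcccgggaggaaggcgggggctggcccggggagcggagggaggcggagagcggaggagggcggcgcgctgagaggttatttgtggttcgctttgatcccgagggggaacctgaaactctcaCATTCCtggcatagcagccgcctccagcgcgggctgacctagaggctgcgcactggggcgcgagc
Ankrd1: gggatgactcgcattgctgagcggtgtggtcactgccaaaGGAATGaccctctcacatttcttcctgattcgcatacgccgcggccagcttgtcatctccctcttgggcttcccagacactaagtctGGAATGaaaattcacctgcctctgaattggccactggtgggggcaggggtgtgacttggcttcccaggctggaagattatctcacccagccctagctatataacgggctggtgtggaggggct

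The word began 103 bases before the Ccn1 start site, 65 bases before that of Amotl2, and 210 and 123 bases before that of Ankrd1. Among the regulators it was also present at Yap1, 141 bases before the start site, at Wwtr1, 136 or 170 bases before its 2 annotated start sites, and at Lats2, just after 1 of its 2 start sites. These sites are shown for comparison, with the same capitals and their flanking bases.
Yap1: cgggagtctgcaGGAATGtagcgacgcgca
Wwtr1: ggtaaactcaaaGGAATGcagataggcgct
Lats2: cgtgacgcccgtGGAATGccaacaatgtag

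In all, 6 of the 7 genes held the word in a window of 300 bases (250 before and 50 after the start site), Tead2 being the exception, whereas 14.7% of all 32851 promoter windows held it on either strand. Counted by gene, 16.6% of the 27025 genes with a window held it in at least 1. The CArG box, the word bound by serum response factor (SRF), stood in none of the 7, against 1.63% of all windows. Such a match is a word in a short window and not a measured binding site.

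Most of these genes were dim. Of the 24 probe sets, 5 were above background on all 4 arrays, 12 on some and 7 on none. Every gene was tested on its brightest probe set, and all 10 passed the filter on mean signal. On those probe sets 8 genes were above background in each homozygous sample, against 5 in heterozygous and 6 in wild type. The arrays also differed in this respect over all tested genes. At or below background were 59.9% of them on the heterozygous array, 45.8% on ko1, 41.3% on wild type and 33.9% on ko2. Whether the counts of the 10 genes depart from these shares was not tested. Yap1, Tead1, Ccn2 and Amotl2 alone were above background on all 4 arrays with their brightest probe set, and Ccn1 was so with a dimmer one. In bulk RNA, a gene expressed in fewer cells cannot be told apart from a gene with less RNA per cell.

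**Figure D1:**
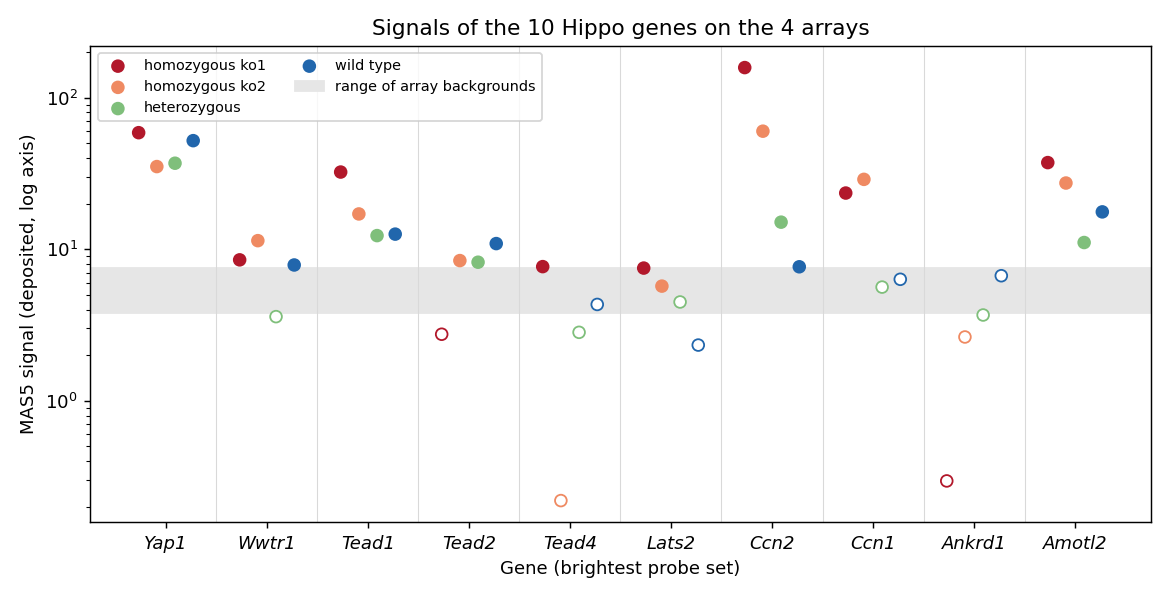
Deposited MAS5 signal (log axis) of the brightest probe set of each of the 10 genes, 1 point per array; open points are at or below the background of their own array, and the grey band spans the 4 backgrounds (3.82 to 7.57). Ccn2 reads 158 and 60.1 in the homozygous samples, above heterozygous (15.1) and wild type (7.66), while the Yap1 arrays overlap.

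Yap1, which encodes the main coactivator of the pathway, was the brightest of the regulators. Its brighter probe set, 1448363_at, read 58.7 in ko1 and 35.1 in ko2, against 36.9 in heterozygous and 52.0 in wild type. The homozygous samples lay on both sides of wild type, and ko2 lay just below heterozygous. Relative to the median gene Yap1 stood at 0.55 ± 0.54 (SE of the fit) for homozygous minus wild type. The dimmer probe set, 1416487_a_at, gave 7.32 in ko1 and 0.411 in ko2, against 3.0 in heterozygous and 9.24 in wild type. It stood at -1.004, opposite in sign, with only ko1 and wild type above background.

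Wwtr1 encodes TAZ, the paralogue of YAP, which binds TEAD proteins in the same way. Its brightest probe set, 1417818_at, read 8.51 in ko1 and 11.4 in ko2, against 3.59 in heterozygous (below background) and 7.87 in wild type (just above it). Both homozygous samples were higher than both other arrays, ko1 by little over wild type, and the difference from wild type was 1.05 ± 0.87. A second probe set, 1417817_a_at, stood at 1.27 with the same order of groups, reading 9.23 and 4.83 in the homozygous samples, against 2.38 in heterozygous and 4.45 in wild type. The third, 1437155_a_at, read 3.35 in ko1 and 3.95 in ko2, against 3.32 in heterozygous and 7.69 in wild type, and stood at -0.21, so the probe sets of this gene did not share a direction.

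The TEAD genes encode the transcription factors that carry YAP and TAZ to DNA. Tead1 was the brightest of them, with 32.3 in ko1 and 17.1 in ko2, against 12.3 in heterozygous and 12.6 in wild type on probe set 1429556_at. Both homozygous samples were above both other arrays, which were alike, and the difference from wild type was 1.61 ± 0.63, or 3.06-fold. A second Tead1 probe set, 1423434_at, was below background on every array (3.98 in ko1 and 1.77 in ko2, against 3.11 in heterozygous and 0.888 in wild type). Tead2, a family member expressed early in the mouse embryo, read 2.75 in ko1 (below background) and 8.41 in ko2, against 8.21 in heterozygous and 10.9 in wild type. Its homozygous samples fell on both sides of heterozygous, and its difference from wild type was -0.31 ± 0.91.

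Tead4, which in the mouse blastocyst is needed for the trophoblast lineage, was above background in ko1 alone. It read 7.68 in ko1 and 0.220 in ko2, against 2.83 in heterozygous and 4.32 in wild type on probe set 1426337_a_at. The difference between the homozygous samples, 3.04 on the log2 scale, was the widest among the 10 genes, so no direction could be read; the other probe set, 1460683_at, was below background on every array, between 0.621 and 1.25.

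Lats2, one of the LATS kinases that phosphorylate YAP and itself a target gene of YAP, was read by 6 probe sets. The brightest, 1419678_at, read 7.51 in ko1 and 5.71 in ko2, against 4.49 in heterozygous and 2.33 in wild type, the last pair below background. The homozygous samples were the highest of the arrays and close to each other. Both signals were nevertheless below the wild type background of 7.57, so no lower bound on the fold is given. The fitted difference from wild type was 2.01 ± 1.09. Of the other 5 probe sets, 3 were below background on every array and 1425420_s_at and 1426156_at were above it on 1 array each. The 6 differences from wild type ranged from -0.27 to 2.05, and 2 of the 6 probe sets had both homozygous samples above both other arrays.

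Ccn2, formerly connective tissue growth factor, encodes a secreted matricellular protein and is among the genes most often used as a readout of YAP activity. Its single probe set, 1416953_at, read 158 in ko1 and 60.1 in ko2, against 15.1 in heterozygous and 7.66 in wild type, all above background though wild type only just. The arrays did not overlap, both samples being far above heterozygous and heterozygous above wild type. The homozygous samples were 19.7-fold higher than wild type (4.30 ± 0.57), ko1 by 4.83 and ko2 by 3.61. Heterozygous minus wild type was 1.60, or 3.03-fold, from 1 array each. The sample with the higher Ccn2 signal, ko1, also had the highest actin control ratio; the part of RNA quality in this difference was not tested.

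Ccn1, formerly Cyr61, encodes a secreted relative of the Ccn2 protein. Its brightest probe set, 1416039_x_at, read 23.5 in ko1 and 28.9 in ko2, against 5.62 in heterozygous and 6.33 in wild type, both below background. On this probe set the homozygous mean was therefore at least 5.76-fold above wild type and at least 3.84-fold above heterozygous. The fitted difference from wild type was 2.68 ± 0.69. The suffix x marks probe sets whose probes may also match other transcripts. Probe set 1442340_x_at read 6.41 in ko1 and 6.88 in ko2, against 2.88 in heterozygous and 0.852 in wild type. Its homozygous signals were below the wild type background of 7.57, so no lower bound on the fold is given. The probe sets without that suffix did not separate the groups. Probe set 1438133_a_at, the only Ccn1 probe set above background on all 4 arrays, read 6.49 in ko1 and 13.9 in ko2, against 7.06 in heterozygous and 7.79 in wild type. It gave 2.03-fold over wild type and 1.35-fold over heterozygous, with ko1 the lowest array. Probe set 1457823_at read 6.88 in ko1 and 2.15 in ko2, against 1.20 in heterozygous and 5.58 in wild type. Their differences from wild type were 1.02 and 0.31.

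Amotl2 encodes angiomotin-like 2, a junction protein that binds YAP and is also induced by it. Its only probe set, 1452387_a_at, read 37.3 in ko1 and 27.3 in ko2, against 11.1 in heterozygous and 17.6 in wild type. All 4 signals were above background and both homozygous samples exceeded both other arrays. The difference from wild type was 1.58 ± 0.59, or 2.99-fold, and the samples differed from each other by only 0.25. Ankrd1, a nuclear cofactor of heart and other muscle and a common YAP readout in other cells, was below background on every array with both of its probe sets. The brighter one, 1420992_at, gave 0.296 in ko1 and 2.64 in ko2, against 3.68 in heterozygous and 6.68 in wild type, and no fold is given.

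**Figure D2:**
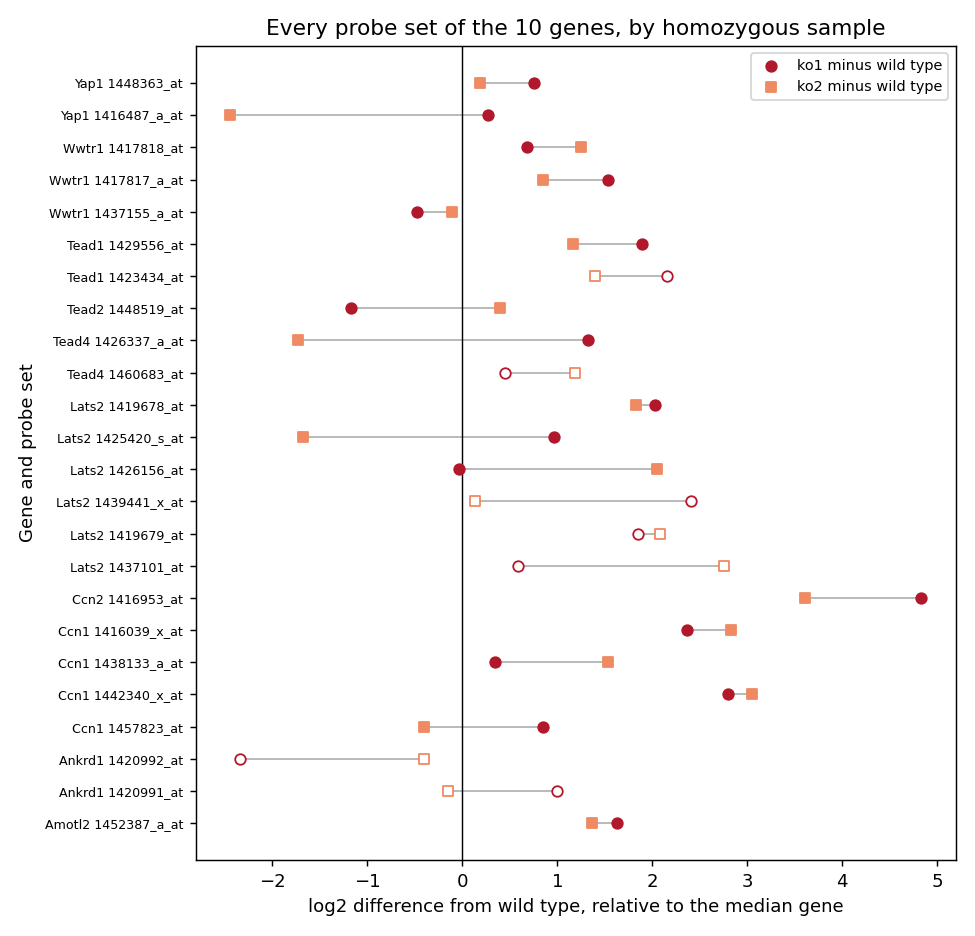
Log2 difference from wild type, relative to the median gene of each pair of arrays, for all 24 probe sets of the 10 genes; circles are ko1, squares ko2, and open symbols mark probe sets below background on all 4 arrays. The samples lie close together for Amotl2 and for the brightest Ccn1 and Lats2 probe sets, and far apart for Tead4 1426337_a_at (1.32 and -1.73).

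Set against wild type, 7 of the 10 genes stood above the median gene on the probe sets used and 3 below it (Tead2, Tead4 and Ankrd1). Both homozygous samples had higher deposited signals than both other arrays in 6 of the 10 genes (Ccn2, Ccn1, Lats2, Tead1, Amotl2 and Wwtr1), while 11% of all 13730 tested genes did; by probe set it was 9 of 24. Both samples were below both other arrays in 1 gene, Ankrd1, while 26.9% of tested genes were. The median difference of the 10 genes was 1.31, and the middle 50% of all tested genes lay between -0.63 and 0.74. The fit placed 1 of the 10 past its threshold in this comparison, Ccn2, and 1.02% of all tested genes. Since the genes were picked with this comparison known, nothing is read from these counts.

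The comparison with heterozygous cells asks whether the homozygous samples also differed from cells that keep an intact copy of BAF250. It uses the same homozygous arrays, whose signals were known when the genes were chosen, so it is not independent of the values above. Its p-values for the 10 genes are therefore given as a description. Ccn2 was 6.36-fold higher in the homozygous samples (2.67 ± 0.57, limma adjusted p = 0.00753), by 3.21 in ko1 and 2.01 in ko2. It was the only gene of the 10 past the threshold of 0.05, against 0.757% of all tested genes. That call ended after quantile normalization (adjusted p = 0.114), after median centring (adjusted p = 0.106), with dim genes kept in (adjusted p = 0.0861), with probe sets averaged and without an intensity trend. Over all alternatives the limma adjusted p ran from 6.51e-05, where wild type and heterozygous were pooled, to 0.634.

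The other 9 genes did not pass, with limma adjusted p-values from 0.251 to 0.974. Ccn1 stood at 2.12 ± 0.69, Amotl2 at 1.50 ± 0.59, Wwtr1 at 1.33 ± 0.87 and Tead1 at 0.93 ± 0.63. For these 4 genes, and for Lats2, both homozygous samples lay above the heterozygous array. Lats2 stood at 0.52 ± 1.09, Yap1 at 0.33 ± 0.54, Tead4 at -0.33 ± 1.42, Tead2 at -0.64 ± 0.91 and Ankrd1 at -1.25 ± 1.41. These errors are wide, and a gene that did not pass may still differ. The median of the 10 genes was 0.72, and the middle 50% of all tested genes ranged from -0.70 to 0.76.

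Heterozygous and wild type had 1 array each, so their comparison has no replicate check and is given as values. Ccn2 (1.60) and Lats2 (1.46) were more than 2-fold higher in heterozygous relative to the median gene. Lats2 was below background on both of these arrays. So 2 of the 10 genes were past 2-fold, against 34.9% of all tested genes in either direction. The other 8 lay between -0.32 (Wwtr1) and 0.65 (Tead1), with Yap1 at 0.19, Ccn1 at 0.53 and Amotl2 at 0.04.

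**Figure D3:**
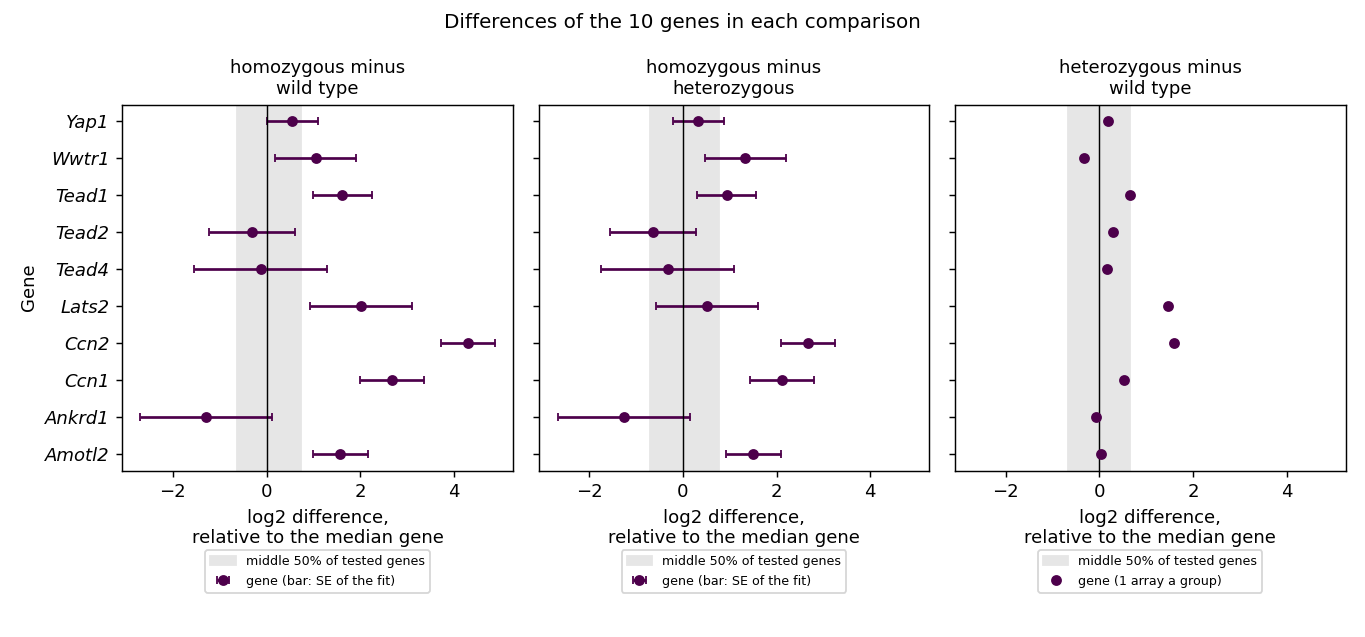
Log2 difference relative to the median gene for the 10 genes in the 3 comparisons, on 1 shared axis; bars are the standard error of the fit, heterozygous minus wild type has none, and the grey band holds the middle 50% of tested genes. Ccn2 lies outside the band in all 3 comparisons (4.30, 2.67 and 1.60), and Yap1 lies inside it in each (0.55, 0.33 and 0.19).

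The rest of the pathway was followed in 34 other genes: upstream kinases and scaffolds, junction and polarity proteins, and Tead3 and the VGLL cofactors. Of these, 33 were on the array and 31 were tested. By limma 0 passed against wild type, where 1.02% of all tested genes did, and 0 against heterozygous, where 0.757% did, so both counts are near the background. Of the 31, 2 passed against wild type and 1 against heterozygous at an unadjusted limma p under 0.05. Of all 13730 tested genes, 1632 and 944 did. The median difference was 0.22 from wild type and -0.12 from heterozygous, with 19 and 12 of the 31 genes above the median gene. The tested genes with the widest differences from wild type were Patj, Wwc1, Sav1 and Mpp5. Patj, a scaffold of the Crumbs polarity complex, gave 7.84 in ko1 and 8.41 in ko2, against 0.861 in heterozygous and 0.766 in wild type. Both homozygous signals were just above the wild type background of 7.57. Relative to the median gene, itself 1.68-fold dimmer in homozygous arrays, the Patj mean was at least 1.80-fold above wild type (limma adjusted p = 0.430). The other 3 Patj probe sets were below background on every array.

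Wwc1, the gene of KIBRA, an upstream activator of LATS, stood at 1.61 on the probe set used and below the median gene on its other 3, so its probe sets disagreed. The probe set used read 13.2 in ko1 and 8.82 in ko2, against 12.5 in heterozygous and 5.62 in wild type (below background). Its difference from heterozygous was -0.17. Sav1, the scaffold of the MST kinases, stood at 1.54, though its signal was highest in heterozygous (7.84), above ko1 (3.96) and ko2 (5.31). Mpp5, another Crumbs complex scaffold now called Pals1, stood at -1.33, by -2.59 in ko1 and only -0.24 in ko2, and its other 2 probe sets, at 0.51 and 0.22, were below background on every array. Nf2, which encodes the tumour suppressor merlin that acts upstream of LATS, was singled out after its values were seen, as it was above background on all 4 arrays. Its signal was 16.1 in ko1 and 9.46 in ko2, against 20.8 in heterozygous and 49.5 in wild type. On this probe set both samples were the lowest arrays, and the difference from wild type was -1.20 (limma adjusted p = 0.119) and from heterozygous -0.69 (limma adjusted p = 0.880). These p-values come from signals without rescaling, whereas the differences are relative to the median gene. On the other 3 Nf2 probe sets the groups overlapped, with differences from wild type of -2.50, -0.59 and 0.63, so the Nf2 probe sets did not share a direction.

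Among 21 other genes reported as YAP, TAZ or TEAD targets, of which Ajuba is also among the pathway genes above, 19 were tested. Against wild type, 0 passed by limma (1.02% of all tested genes did), and the median was -0.03, with 9 of 19 above the median gene. At an unadjusted limma p under 0.05, 2 of the 19 passed, and 1632 of all 13730 tested genes did. Against heterozygous, 1 rose and 0 fell (0.757% of all tested genes passed), and the median was 0.70, with 16 of 19 above. The gene that rose was Crim1, which encodes a membrane protein that binds BMP ligands. Its probe set gave 20.1 in ko1 and 19.6 in ko2, against 0.322 in heterozygous and 0.822 in wild type, so the homozygous mean was at least 2.92-fold above heterozygous (limma adjusted p = 0.0449). This call was lost in 7 of the 9 alternative fits, and the second Crim1 probe set was above background only in ko2 (4.58). Crim1 passed the filter on mean signal only through the homozygous arrays, and the list was chosen with earlier results of these data known. Its p-value is therefore given as a description.

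F3, the gene of tissue factor, gave 20.003 in ko1 and 11.03 in ko2, against 3.45 in heterozygous and 0.724 in wild type. Its mean was at least 3.29-fold above wild type without passing (limma adjusted p = 0.0842). Nt5e, the ecto-enzyme CD73, read 10.3 in ko1 and 9.14 in ko2, against 5.15 in heterozygous and 2.25 in wild type, with a mean at least 2.15-fold above wild type. Its other 2 probe sets did not share this pattern: 1 was below background on every array, at -0.34, and the other was above it in ko2 alone. Ptpn14, a phosphatase that binds YAP, read 49.4 in ko1 and 25.05 in ko2, against 16.8 in heterozygous and 15.9 in wild type, all above background, with a difference of 1.86 from wild type (limma adjusted p = 0.441). That p-value comes from signals without rescaling, whereas 1.86 is relative to the median gene. A second Ptpn14 probe set gave 8.13 in ko1 and 9.96 in ko2, against 0.817 in heterozygous and 9.56 in wild type, which overlap. Fjx1 was above background in wild type alone, with 2.58 in ko1 and 2.70 in ko2, against 0.421 in heterozygous and 15.3 in wild type, with a homozygous mean at least 1.98-fold lower (limma adjusted p = 0.466). Cdx2, the trophoblast gene that YAP and TEAD4 turn on in the blastocyst, was above background in ko1 alone (7.28), with 1.11 in ko2, against 0.370 in heterozygous and 1.12 in wild type, and was not tested; it is named outside the rule for list genes, after its values were seen.

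Ccn1, Ccn2 and Ankrd1 are also targets of SRF and its actin-regulated MRTF cofactors. Of 20 actin and SRF genes, 18 were tested and 0 passed by limma against wild type or heterozygous (1.02% and 0.757% of all tested genes did). At an unadjusted limma p under 0.05, 1 and 2 of the 18 passed, and 1632 and 944 of all 13730 tested genes did. The median difference of the 18 genes was 0.38 from wild type and 0.18 from heterozygous. Fhl2, a LIM-domain cofactor, gave 10.2 in ko1 and 6.23 in ko2, against 3.96 in heterozygous and 1.35 in wild type. The ko2 signal of Fhl2 was below the wild type background of 7.57, so no lower bound on the fold is given. Zyx, the focal adhesion protein zyxin, read 33.0 in ko1 and 23.3 in ko2, against 12.5 in heterozygous and 12.6 in wild type, a difference of 1.84. Mrtfa itself stood at 1.83, with ko1 (5.45) and wild type (2.09) below background, and Tagln2, an actin-binding protein, stood at 1.40. Mrtfa read 13.7 in heterozygous, more than in either homozygous sample. Tagln and Cnn1, smooth muscle genes singled out after their values were seen, lay lower than heterozygous. Tagln gave 2.20 in ko1 and 16.9 in ko2, against 44.0 in heterozygous and 13.1 in wild type, -2.62 from heterozygous (limma adjusted p = 0.110). Cnn1, above background in heterozygous alone, stood at -2.44 from heterozygous (limma adjusted p = 0.795).

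**Figure D4:**
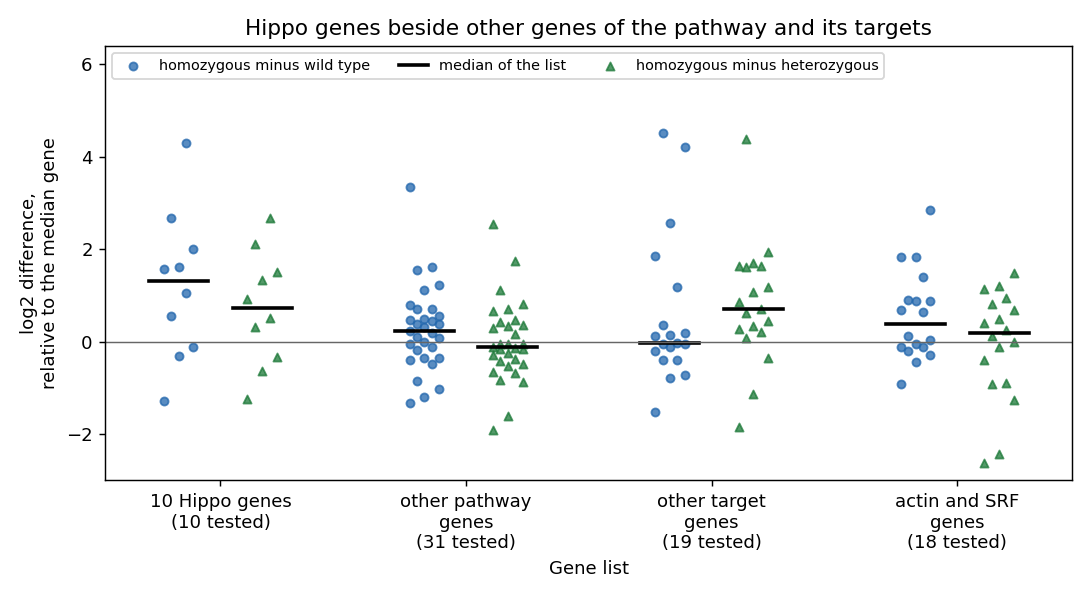
Log2 differences relative to the median gene for the tested genes of each list, circles for homozygous minus wild type and triangles for homozygous minus heterozygous, with a bar at the median. The 10 Hippo genes have medians of 1.31 and 0.72, the other pathway genes 0.22 and -0.12, the other targets -0.03 and 0.70, and the actin and SRF genes 0.38 and 0.18.

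Markers of other cell types were also examined. Those of extraembryonic endoderm were higher in both homozygous samples than in both other arrays, while trophoblast and fibroblast markers were mixed. All marker lists, those of the next paragraph included, were chosen with earlier results of these data known. Their counts and calls are therefore given as a description. Marker counts above background were not tested against the shares of all tested genes. Those at or below background made up 59.9% on the heterozygous array, 45.8% on ko1, 41.3% on wild type and 33.9% on ko2. Of 12 extraembryonic endoderm markers, 12 were above background in each homozygous sample, against 4 in heterozygous and 5 in wild type, and their summed signal was 6994 in ko1 and 3877 in ko2, against 111 in heterozygous and 152 in wild type. Of these, 8 rose by limma against wild type and 8 against heterozygous, where 1.02% and 0.757% of all tested genes passed in either direction. Like Ccn2, their summed signal was higher in ko1 than in ko2. Of 10 trophoblast markers, 6 and 5 were above background in ko1 and ko2, against 2 in heterozygous and 4 in wild type. Their summed signal was 478 in ko1 and 359 in ko2, against 124 in heterozygous and 119 in wild type, mostly Krt18 and Krt8, the keratin genes of simple epithelia. Among the trophoblast regulators, Hand1 gave 9.29 in ko1 and 12.6 in ko2, against 6.04 in heterozygous and 13.4 in wild type. Tfap2c was above background in ko1 and wild type, Elf5 and Gata3 in ko2 alone, Cdx2 in ko1 alone, and Eomes and Ascl2 on no array with the probe sets used.

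Of 10 fibroblast markers, 4 and 5 were above background in the homozygous samples, against 0 in heterozygous and 2 in wild type, and their sum was 57.6 for ko1 and 62.4 for ko2, against 23.4 in heterozygous and 37.7 in wild type. Both homozygous samples were above both other arrays in 4 of the 10, Col1a2, Pdgfra, Dcn and Postn, while 11% of all 13730 tested genes were. Dcn was above background in ko1 alone and Postn in ko2 alone, and Postn was not tested. Against wild type, 5 of the 7 tested stood above the median gene and 2, Col3a1 and Lum, below it. By limma 0 of the 7 tested passed against wild type or heterozygous. At an unadjusted limma p under 0.05, 1 and 2 of the 7 passed, and 1632 and 944 of all 13730 tested genes did. Col1a2, a collagen I gene, gave 16.5 in ko1 and 25.6 in ko2, against 2.85 in heterozygous and 7.84 in wild type, with a mean at least 3.03-fold above heterozygous. Pdgfrb and S100a4 were below background on every array, and Col3a1 was above it only in ko2 (4.44). The summed signal of the ES cell markers was 782 and 893 in the homozygous samples, against 1955 in heterozygous and 3285 in wild type, most of it from Dppa5a (658 in ko1 and 725 in ko2, against 1539 in heterozygous and 2341 in wild type). By limma 6 of the 10 ES cell markers fell against wild type, Pou5f1 and Sox2 among them, where 1.02% of all tested genes passed. Against heterozygous 2 fell, Fgf4 and Tdgf1, where 0.757% passed. These calls came from signals without rescaling, in which the wild type array was brighter. Of the genes called against wild type, 45 of 50 were higher after median centring and 32 of 33 after quantile normalization. The 6 falls can therefore not all have stayed called. Relative to the median gene, the median difference of the 10 markers from wild type was -2.07. Of the 10, 9 stood below the median gene and 1, Klf4, above it. Klf4 read 30.9 in ko1 and 28.0 in ko2, against 15.2 in heterozygous and 21.3 in wild type. The part of the cell types marked here in the values of Ccn2, Ccn1 and the other genes was not tested.

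Likeness to Ccn2 was measured as the Euclidean distance between log2 profiles over the 4 arrays, relative to the median gene of each array and centred on the gene's own mean, and with so few arrays it is a description only. The closest of the tested genes were Pdgfra (distance 0.44), Cers6 (0.47), Frmpd1 (0.51), Gm33628 (0.56) and Vmn1r13 (0.59). All 5 were dimmer than Ccn2 and below background in heterozygous and wild type. Pdgfra, a growth factor receptor gene, gave 19.8 in ko1 and 8.48 in ko2, against 1.87 in heterozygous and 0.966 in wild type.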

How the data were processed

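The authors deposited 1 linear signal intensity for each probe set and array, and the submitters' processing notes name MAS5. Its version and scaling target are not given in the sources used. Biotin labelling started from 8 microgram of total RNA, per the labels' protocols. Of 45101 probe sets, 34958 had 1 gene symbol in the platform annotation (932 several, 9211 none). For each of 18194 genes the brightest probe set by mean over the arrays was used. Tests covered the 13730 genes whose mean exceeded 2.55, the 40th percentile of probe set means.

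Differences were computed as log2(signal + 0.675), from the deposited intensities, 0.675 being the 20th percentile of all values. limma 3.58.1 (R 4.3.3) was fitted with 1 mean per genotype and a variance trend over intensity. Its p-values, adjusted by Benjamini-Hochberg, were read at 0.05 and come from signals without any rescaling. They test differences before the median gene is subtracted, unlike the differences and folds printed here. The only residual degree of freedom is between the homozygous samples, whose spread stands in for that of the single arrays; with information borrowed across genes the total was 47.6. The number of arrays limits the precision. Background was the brightest of 27 unspiked control probe sets. A bound ("at least") sets the mean log2 signal of the brighter side over the higher of the dim array's background and its own signal, relative to the median gene.

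The genes and lists were chosen with earlier results of these data known. Genes named from a list were those called (up to 6) and up to 4 others with the largest tested difference from wild type; for likeness, the 5 nearest genes. Extraembryonic endoderm, trophoblast, fibroblast and ES cell marker lists were fixed with them. Alternatives changed the pseudocount, scaling, filter, probe set rule, variance trend and grouping, or left out a homozygous sample.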

Additional observations from a re-analysis of the deposited data

How the results depend on the processing

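No paired analysis was possible because wild type and heterozygous have 1 array each. Leaving out a homozygous sample leaves no residual degree of freedom, so it gives values only. Against wild type, where the choice of genes leaves nothing to be read from the count, 0 of the 10 genes were past the threshold with probe sets averaged and without an intensity trend. Against heterozygous, 0 of the 10 were called after quantile normalization, median centring, without the filter on dim genes, with probe sets averaged and without the trend. Without the trend 0 of all tested genes were called in either comparison, the total degrees of freedom being 6.45; with probe sets averaged they were 8.83. Ccn2 has 1 probe set, and its difference from wild type stayed between 3.43 and 4.83 throughout.

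Of the other targets, 1 gene (Crim1) was called against wild type with the pseudocount at the 40th percentile and in the fit of 2 groups (ko1 and ko2 against the pooled heterozygous and wild type arrays). Against heterozygous its call was lost (0 called) with the pseudocount divided by 16, after quantile normalization and median centring, without the filter, with probe sets averaged, with every probe set tested and without the trend. The median difference of the 10 genes was 0.88 (wild type) and 0.27 (heterozygous) with probe sets averaged, and 1.17 in the fit of 2 groups; the cause was not tested. Leaving out a sample gave 1.21 to 1.48 against wild type and 0.44 to 1.06 against heterozygous. Over all alternatives, 287 of 300 single-gene values kept their sign; Tead4 ran from -1.73 to 1.32 and Yap1 from -0.37 to 0.75 against wild type. Of the actin and SRF genes, Tagln was called lower than heterozygous with the larger pseudocount (limma adjusted p = 0.0459). Over all genes tested, calls against wild type ranged from 0 to 203 and against heterozygous from 0 to 111, beside 140 and 104.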
